A study of Homo sapiens with 8 samples.

Results

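Mitochondrial apoptosis is set by a small group of genes that guard the outer membrane of the mitochondrion, pierce it, or act on what leaks out. The group followed here has 10 members: the guardians BCL2, BCL2L1, BCL2L2, MCL1 and BCL2A1, the pore formers BAX and BAK1, the apoptosome genes APAF1 and CASP9, and the caspase inhibitor XIAP. A member was measured by a transcript cluster, a set of array probes summarised to 1 value, whose only gene symbol in the platform annotation was that member. This held for 9 of the 10 members, each with 1 cluster, out of 18417 genes. BCL2L2 had only a cluster shared with the readthrough gene BCL2L2-PABPN1 and was therefore not a measured member.

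The arrays were made from 2 human multiple myeloma cell lines, U266/s, called parental in the series text, and U266/LR7, called melphalan-resistant there. Myeloma is a cancer of antibody-secreting plasma cells, and melphalan is a drug that alkylates and crosslinks DNA. Each line gave 4 total RNA samples, taken 12 h after treatment: a control transfected with a negative control oligonucleotide, cells given melphalan at 100 µM, cells transfected with inhibitors of miR-221 and miR-222 at 100 nM, and cells given both agents. The tags of the melphalan arrays list no transfection, whereas the protocol reads as if every culture without inhibitors received the control oligonucleotide, so a transfection difference may lie inside the melphalan and inhibitor contrasts. Each of the 8 conditions has 1 array, and nothing states whether cultures were separate. The p-values therefore rest on the spread left by 1 fit over all 8 arrays. That spread may be technical, and it also holds inhibitor by line and inhibitor by melphalan differences. It is not a spread of replicates. The labels do not say how U266/LR7 was derived or whether it is a clone. In bulk RNA, fewer cells of a kind and less RNA per cell cannot be told apart.

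As background, BAX and BAK1 proteins open the outer mitochondrial membrane once BH3-only proteins activate them, and the guardians bind and restrain both kinds. Cytochrome c that escapes assembles APAF1 into the apoptosome, which activates caspase 9, and XIAP binds and blocks caspases. Plasma cells and many myelomas depend on MCL1 for survival. The proteins are governed largely by binding, cleavage and turnover, which RNA does not show. Splice forms with opposite actions, known for BCL2L1 and MCL1, were not separated, since each cluster gave 1 value per gene.

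The agents aimed at miR-221 and miR-222 act on small RNAs with a shared seed (bases 2 to 8, in capitals), shown because this seed sets which transcripts they can bind. The labels do not name the arm that was inhibited. The 3p arms in RefSeq, both on the minus strand of chromosome X (GRCh38.p14, chrX:45746180-45746202 and chrX:45747036-45747056), are as follows.
hsa-miR-221-3p: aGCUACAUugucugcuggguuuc
hsa-miR-222-3p: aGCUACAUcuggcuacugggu

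The RefSeq promoter table (GRCh38.p14) held 8 of the 10 members in 12 windows, with no entry for MCL1 or BCL2L2. The 250 bases upstream of the start of BAX, BAK1 and APAF1 are shown. BAX and BAK1 encode the pore formers, which were both lower in U266/LR7 without melphalan, and APAF1 had the widest signal range of the members (2.02 log2 units). They lie at chr19:48954625-48954874 on the plus strand, chr6:33580277-33580526 on the minus strand and chr12:98645040-98645289 on the plus strand. Capitals mark the E-box CACGTG, the GC box GGGCGG, the CCAAT box CCAAT and the TATA box TATAAA on either strand.
BAX: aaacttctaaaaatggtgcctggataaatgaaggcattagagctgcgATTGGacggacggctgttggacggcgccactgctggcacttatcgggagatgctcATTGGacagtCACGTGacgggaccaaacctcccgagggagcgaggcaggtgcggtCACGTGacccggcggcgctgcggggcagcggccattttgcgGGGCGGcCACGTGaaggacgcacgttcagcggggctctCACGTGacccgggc
BAK1: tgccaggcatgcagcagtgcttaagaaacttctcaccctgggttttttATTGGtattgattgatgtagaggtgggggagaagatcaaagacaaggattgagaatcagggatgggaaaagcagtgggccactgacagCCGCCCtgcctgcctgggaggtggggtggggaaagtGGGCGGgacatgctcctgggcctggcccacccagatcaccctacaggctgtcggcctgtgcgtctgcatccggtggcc
APAF1: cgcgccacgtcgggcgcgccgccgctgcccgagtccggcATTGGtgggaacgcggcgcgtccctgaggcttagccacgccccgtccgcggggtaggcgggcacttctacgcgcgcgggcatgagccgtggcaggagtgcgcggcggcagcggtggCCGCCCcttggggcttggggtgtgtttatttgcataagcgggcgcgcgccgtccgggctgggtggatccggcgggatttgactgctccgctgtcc
The BAX window held 4 E-boxes, 1 GC box and 2 CCAAT boxes. At least 4 E-boxes stood in 5 of the 35116 windows of the whole table (0.0142%), and any E-box in 6.34%. No other member's window held an E-box. BAK1 had 2 GC boxes and 1 CCAAT box, and APAF1 had 1 of each. Each of the 2 CASP9 windows held 8 GC boxes. Of all windows, 42.6% held any GC box and 2.22% held 6 or more. CCAAT boxes stood in 32.0% of windows and TATA boxes in 10.7%, the latter in BCL2A1 (1) and in 1 of 2 BCL2L1 windows (2). These matches describe letters in the window and were not tested against the array values.

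Plasma cell markers checked the label of the cells. All 10 were measured, and 7 lay above the median gene on all 8 arrays, among them TNFRSF17 (9.92 to 11.98 log2 units), XBP1 (11.19 to 12.38), IRF4 (11.91 to 12.59), PRDM1 (10.60 to 11.79) and SDC1 (9.26 to 11.33). The other 3 were CD38, above it on 4 arrays (6.48 to 8.39 overall), and SLAMF7 and MZB1, above it on 5 arrays each. For other cell types, 4 B cell, 7 T or NK cell, 4 myeloid and 6 stromal or epithelial genes were measured, and 0 of them lay above the median gene on all arrays. COL1A1 lay above it on 7 arrays and CD8A on 6, and NKG7, CD14, EPCAM and MPO on 1 or 2. Marker levels moved with melphalan in U266/s: 2 of 4 myeloid markers rose and 0 fell (list median 0.70), while 5 of 10 plasma cell markers fell and 1 rose (list median -0.55), beside 18.4% of all genes called higher and 24.9% lower. The mean myeloid level ran from 5.77 to 6.66 in U266/s and from 5.54 to 5.81 in U266/LR7. In U266/s CD14 reached 7.94 and MPO 7.45, whereas LYZ stayed at 4.48 to 5.31. The part of these shifts in the melphalan results was not tested. The interquartile range of all clusters was 3.25 and 3.34 on the U266/s arrays with melphalan and with melphalan plus inhibitors, against 3.58 to 3.71 on the other arrays. This narrowing accompanies every melphalan value of U266/s below. The members were refitted under other normalizations, and the pathway lists were not.

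BCL2L1, which encodes the guardian BCL-xL, separated the lines most clearly among the guardians. Its signal in U266/LR7 was 11.55 (control), 10.92 (inhibitors), 11.08 (melphalan) and 10.82 (both). In U266/s it was 10.16, 9.99, 10.39 and 10.21 in the same order. Every U266/LR7 array lay above every U266/s array. The share of all genes whose lines do not overlap was not counted, for this or any member below. Without melphalan the difference was 1.16 ± 0.14 log2 units (SE), or 2.24-fold (limma adjusted p = 6.61e-05), and with melphalan 0.65 ± 0.14 (adjusted p = 0.00301). The difference under melphalan lost its call with quantile normalization (0.36, adjusted p = 0.0697) and cyclic loess (0.29, adjusted p = 0.135).

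MCL1, the guardian with a short-lived protein, was the brightest member cluster, above 97.8% of genes by mean signal. It read 11.97, 11.97, 11.72 and 11.69 in U266/LR7 and 11.72, 11.47, 11.82 and 11.25 in U266/s, again as control, inhibitors, melphalan and both. The lines overlapped with melphalan and did not overlap without it. The line difference without melphalan was 0.38 ± 0.14 (adjusted p = 0.0597). It passed under median centring (0.41, adjusted p = 0.0391), when only brighter genes were tested (adjusted p = 0.0409), with every pairwise interaction (adjusted p = 0.04), with transfection as 3 levels (adjusted p = 0.0371), and without the U266/LR7 control array (0.51) or either U266/s melphalan array.

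BCL2, the founding guardian, stayed within 0.53 log2 units over all arrays. Its values were 9.02, 9.36, 9.02 and 8.91 in U266/LR7 and 9.22, 8.84, 9.18 and 8.82 in U266/s. The lines overlapped in both states. The intervals of its line difference were -0.24 to 0.56 without melphalan and -0.43 to 0.37 with it, so a difference of up to about this size was not detectable. BCL2A1, an NF-kB-inducible guardian, read 5.02 to 5.51 over all arrays, under the lower quartile of the genes on every array (5.81 to 6.02). Its folds were thus taken between low signals, possibly near the array floor, which was not measured. The cluster shared by BCL2L2 and BCL2L2-PABPN1 read 6.72 to 7.04 in U266/LR7 and 6.39 to 7.09 in U266/s, and was not tested as a member.

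The pore formers were lower in U266/LR7 without melphalan. BAX read 9.89, 9.57, 9.78 and 9.90 in U266/LR7 and 10.14, 10.37, 10.01 and 10.20 in U266/s, in the order above. The lines did not overlap on any array. The difference without melphalan was -0.52 ± 0.16 (1.44-fold lower, adjusted p = 0.0221) and with melphalan -0.27 ± 0.16 (adjusted p = 0.178). The first lost its call with all clusters in the adjustment (adjusted p = 0.0511). It also lost it without the U266/LR7 inhibitor (-0.28), U266/s control (-0.64) or U266/s inhibitor array (-0.41). The second was called with quantile normalization (-0.58, adjusted p = 0.0162) and cyclic loess (-0.65, adjusted p = 0.00923). A fit with no interaction term gives a single line difference, averaged over both drug states. For BAX that average was -0.39 (limma adjusted p = 0.0712).

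BAK1 read 9.19, 9.53, 9.66 and 9.75 in U266/LR7 and 9.86, 10.01, 9.35 and 9.64 in U266/s. U266/s was the higher line without melphalan and the lower line with it. The line difference was -0.58 ± 0.14 without melphalan (1.49-fold lower in U266/LR7, adjusted p = 0.00656) and 0.21 ± 0.14 with it (adjusted p = 0.216). The first lost its call without the U266/s control array (-0.53). The sign of the second turned with quantile normalization (-0.13) and cyclic loess (-0.17). Averaged over both drug states in the fit with no interaction term, the line difference was -0.18 (limma adjusted p = 0.468).

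Both apoptosome genes were higher in U266/LR7, and CASP9 had the largest line difference of the members in both states in the main fit. CASP9, the initiator caspase of the pathway, read 8.73, 9.07, 9.20 and 9.17 in U266/LR7 and 7.68, 7.55, 7.82 and 7.69 in U266/s. Every U266/LR7 array lay above every U266/s array. The difference was 1.28 ± 0.16 without melphalan (2.44-fold, adjusted p = 6.49e-05) and 1.43 ± 0.16 with it (2.69-fold, adjusted p = 2.38e-05), and both were called under every alternative run. The rank was less stable. With melphalan, APAF1 and XIAP exceeded CASP9 under quantile normalization (1.39 and 1.37 against 1.19) and cyclic loess (1.45 and 1.41 against 1.21). Without melphalan, BCL2L1 exceeded CASP9 when the U266/LR7 inhibitor array (1.38 against 1.07) or the U266/s inhibitor array (1.25 against 1.19) was left out.

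APAF1, the scaffold of the apoptosome, read 7.25, 7.77, 7.14 and 6.91 in U266/LR7 and 6.87, 6.70, 5.77 and 5.75 in U266/s. Every U266/LR7 array lay above every U266/s array. The difference was 0.73 ± 0.18 without melphalan (1.65-fold, adjusted p = 0.00766) and 1.27 ± 0.18 with it (2.41-fold, adjusted p = 0.000134). Without the U266/LR7 inhibitor array or the U266/s inhibitor array the first was 0.40 or 0.59 and lost its call. Both U266/s melphalan values lay under the lower quartile of genes on those arrays. Whether low signal limits the size of the difference with melphalan was not tested.

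XIAP, the strongest caspase inhibitor of its family, read 7.17, 7.92, 7.39 and 7.61 in U266/LR7 and 7.64, 7.13, 6.33 and 6.06 in U266/s. Without melphalan the lines overlapped (0.16 ± 0.24, adjusted p = 0.684), and the inhibitor pairs moved in opposite directions. With melphalan U266/LR7 was higher by 1.303 ± 0.24 (2.47-fold, adjusted p = 0.000948). The fit with no interaction term, which averages both drug states, gave 0.73 (limma adjusted p = 0.0849). Without the U266/LR7 control array the first difference was 0.63 and was called (adjusted p = 0.0497). XIAP has retrocopies, among them BIRC8, and BAK1 has processed pseudogenes, and the share of probes that could bind such copies was not examined.

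**Figure D1:**
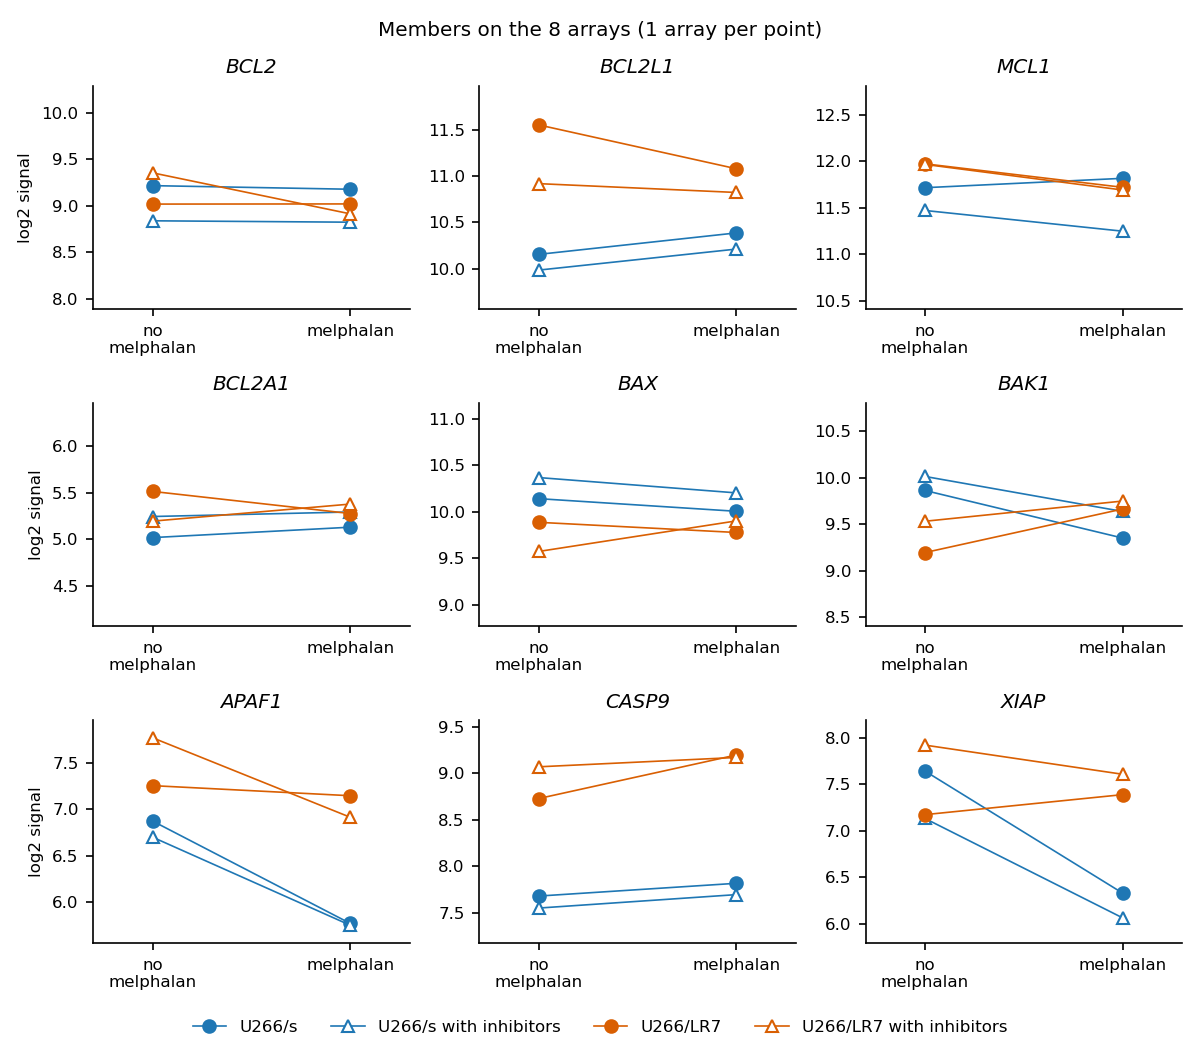
Log2 signal (y axis, each panel spanning 2.4 log2 units) of the 9 measured members without and with melphalan (x axis). Each point is 1 array, lines join arrays with the same inhibitor state, blue is U266/s and orange U266/LR7, and open triangles mark inhibitors. CASP9 and BCL2L1 keep the lines apart throughout, whereas XIAP separates them with melphalan and BAK1 changes the order of the lines.

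On the arrays without melphalan, the resistant line thus differed from its parent at BCL2L1, APAF1 and CASP9, which were higher, and at BAX and BAK1, which were lower. That is 5 of 9 members called at an adjusted p under 0.05. The same rule called 34.7% of all genes, 16.9% higher and 17.8% lower. With melphalan, BCL2L1, APAF1, CASP9 and XIAP were higher and 0 were lower, so 4 of 9 members were called. The background then was 51.7% of all genes, 27.7% higher and 24% lower. Counted in either direction, the members' share was below the background in this state. Counted by direction, 4 of 9 higher was a larger share than 27.7%, and 0 lower a smaller one than 24%. The median member difference was 0.22 without melphalan and 0.21 with it, beside -0.04 and -0.08 over all genes.

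**Figure D2:**
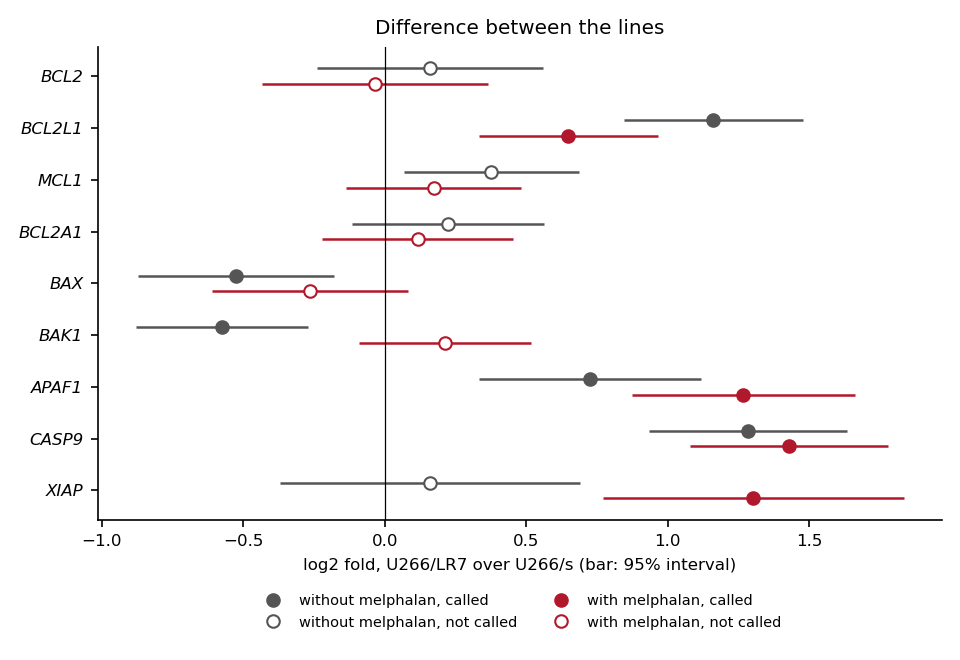
Fitted log2 fold of U266/LR7 over U266/s (x axis) for the 9 members (y axis), without melphalan in grey and with melphalan in red, each from 2 arrays against 2. Bars are 95% intervals and filled points were called at an adjusted p under 0.05. CASP9 stands at 1.28 and 1.43, whereas BAX and BAK1 lie left of 0 without melphalan.

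Melphalan in U266/s lowered XIAP, APAF1 and BAK1 and left no member called as higher. The mean XIAP signal was 7.39 ± 0.36 without and 6.20 ± 0.19 with melphalan (SD, n = 2), a fall of 2.28-fold (-1.19 ± 0.24, limma adjusted p = 0.0022). Each mean in this paragraph joins the array without and the array with inhibitors, so its SD is not a spread of replicates. APAF1 went from 6.79 ± 0.12 to 5.76 ± 0.014 (SD, n = 2), a fold change of -1.025 ± 0.18 on the log2 scale (adjusted p = 0.000817). BAK1 was 1.36-fold lower, at 9.49 ± 0.20 against 9.94 ± 0.11 (SD, n = 2), or -0.44 ± 0.14 (adjusted p = 0.0231). All 3 ran the same way in both matched pairs. The background was 43.4% of all genes called, 18.4% higher and 24.9% lower. Counted in either direction, 3 of 9 is no larger a share than 43.4%. All 3 were lower, and as such 3 of 9 is a larger share than 24.9%.

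Across the 3 other normalizations the XIAP value lay between -1.13 and -1.34 and the APAF1 value between -0.96 and -1.22, all called. With no interaction term, which averages the lines, neither was called (-0.62 for XIAP, adjusted p = 0.195, and -0.75 for APAF1, adjusted p = 0.0504). XIAP also lost its call without the U266/s control array (-0.82, adjusted p = 0.0579). The BAK1 fall was not called with quantile normalization (-0.13, adjusted p = 0.452), with cyclic loess (-0.14, adjusted p = 0.434), with transfection as 3 levels (-0.47, adjusted p = 0.0754), with no interaction term (-0.05), or without any single one of the U266/s arrays (-0.40 to -0.49). BCL2L1 stood at 0.23 ± 0.14 (adjusted p = 0.217) and was called higher with quantile normalization (0.50, adjusted p = 0.0181) and cyclic loess (0.51, adjusted p = 0.0193).

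The remaining members had U266/s responses of -0.15 ± 0.16 for BAX, -0.06 ± 0.14 for MCL1, -0.03 ± 0.18 for BCL2, 0.08 ± 0.15 for BCL2A1 and 0.14 ± 0.16 for CASP9. None of these was called under any normalization. The signs of BCL2, MCL1, BCL2A1 and BAX each turned with cyclic loess. BCL2 has the longest gene of the group, spanning 196.7 kb, followed by APAF1 (90.1 kb), BCL2L1 (59.5 kb), XIAP (54.3 kb) and CASP9 (33.5 kb). MCL1 (5.1 kb), BAX (6.9 kb), BAK1 (7.7 kb) and BCL2A1 (10.3 kb) are short. Whether gene length moves with the response was not tested.

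**Figure D3:**
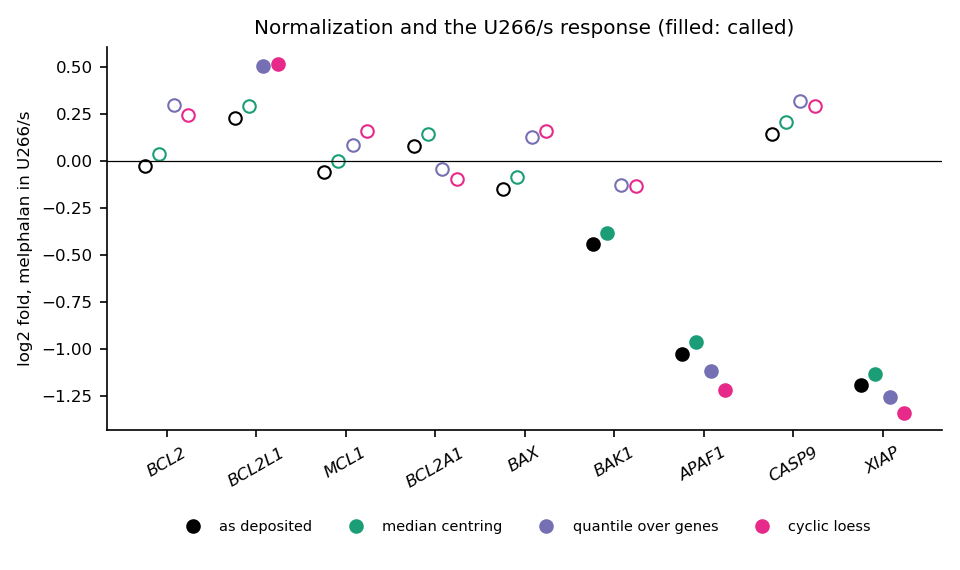
Log2 fold with melphalan in U266/s (y axis) for the 9 members (x axis) under the deposited values and 3 further normalizations, each from 2 arrays against 2. Filled points were called at an adjusted p under 0.05. XIAP and APAF1 stay below -0.9 under all 4, whereas BAK1 moves from -0.44 to -0.13 with quantile normalization and BCL2L1 from 0.23 to 0.50.

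In U266/LR7, melphalan changed 0 of 9 members by limma at an adjusted p under 0.05, on a background of 6.62% of all genes. At an unadjusted p under 0.05 the count was 2 of 9 by limma, beside 20.1% of all genes, namely APAF1 at -0.48 ± 0.18 (adjusted p = 0.149) and BAK1 at 0.34 ± 0.14 (adjusted p = 0.187). The APAF1 pairs were uneven, at -0.11 without and -0.86 with inhibitors, and without the U266/LR7 control array the value was -0.81 and was called (adjusted p = 0.017). BCL2L1 (-0.28 ± 0.14), MCL1 (-0.26 ± 0.14) and BCL2 (-0.22 ± 0.18) had negative values, and CASP9 (0.28 ± 0.16) and BAX (0.11 ± 0.16) positive ones. XIAP stood at -0.05 ± 0.24 with an interval of -0.58 to 0.48, which does not reach the U266/s fall of 1.19.

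**Figure D4:**
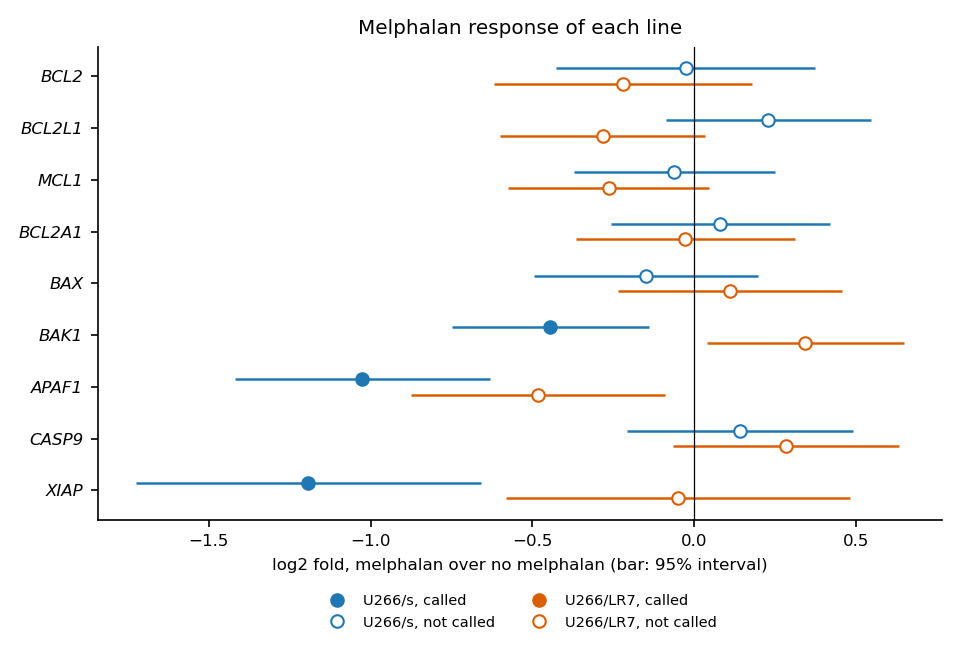
Fitted log2 fold with melphalan (x axis) for the 9 members (y axis) in U266/s (blue) and U266/LR7 (orange), each from 2 arrays against 2. Bars are 95% intervals and filled points were called. XIAP, APAF1 and BAK1 are called in U266/s, and the BAK1 values of the lines lie on opposite sides of 0.

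The difference between these responses was tested directly as the melphalan by line term. It was called for BAK1 (0.79 ± 0.20, adjusted p = 0.0128) and XIAP (1.14 ± 0.34, adjusted p = 0.0316), both more positive in U266/LR7, and 2 of 2 array pairs ran that way for each. These 2 of 9 members compare with 23.9% of all genes, 17.9% positive and 5.99% negative. BAK1 lost the call with quantile normalization (0.44, adjusted p = 0.105) and cyclic loess (0.42, adjusted p = 0.13), and without the U266/LR7 melphalan, U266/s control or U266/s melphalan array (0.70, 0.74 and 0.74). XIAP lost it with cyclic loess (1.22, adjusted p = 0.0521) and with all clusters in the adjustment (adjusted p = 0.0908). It also lost it without the U266/LR7 control (0.68), U266/LR7 melphalan (1.26), U266/LR7 combination (1.03), U266/s control (0.77) or U266/s combination array (0.93).

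BCL2L1 had a negative interaction of -0.51 ± 0.20 (adjusted p = 0.0939), since its value was 0.23 in U266/s and -0.28 in U266/LR7. It was called with median centring (-0.61, adjusted p = 0.0489), quantile normalization (-0.81, adjusted p = 0.0187), cyclic loess (-0.85, adjusted p = 0.0173) and without the U266/LR7 inhibitor array (-0.73, adjusted p = 0.00951). APAF1 (0.54 ± 0.25, adjusted p = 0.149) was called without the U266/LR7 inhibitor array (0.87). Its values on the U266/s melphalan arrays lay under the lower quartile of genes there. The terms of BCL2, MCL1, BCL2A1, BAX and CASP9 lay between -0.20 and 0.26.

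The inhibitors of miR-221 and miR-222, compared over 4 matched pairs, changed 0 of 9 members by limma at an adjusted p under 0.05, on a background of 0.0434% of all genes (8 genes). At an unadjusted p under 0.05 the count was 2 of 9, beside 6.3% of all genes. BCL2L1 had the largest member value, -0.31 ± 0.10 (adjusted p = 0.626), and was lower in 4 of 4 pairs, by 0.17, 0.17, 0.63 and 0.25 log2 units beside the U266/s control, U266/s melphalan, U266/LR7 control and U266/LR7 melphalan arrays. BAK1 stood at 0.21 ± 0.10 (adjusted p = 0.788) and was higher in 4 of 4 pairs. MCL1 stood at -0.21 ± 0.10 (adjusted p = 0.789) and was lower in 4 of 4, by 0.25 and 0.57 in U266/s but by 0.01 and 0.03 in U266/LR7. The share of all genes with the same sign in 4 of 4 pairs was not counted.

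The pair beside the U266/LR7 control differed from the other 3 pairs at several members. BCL2 was higher with inhibitors there by 0.34, CASP9 by 0.34 and APAF1 by 0.52, and lower in the other 3 pairs. BAX (-0.31) and BCL2A1 (-0.32) were lower there and higher in the other 3. XIAP differed by line, at -0.51 and -0.27 in U266/s against 0.75 and 0.22 in U266/LR7. These are differences between single arrays and carry no test.

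**Figure D5:**
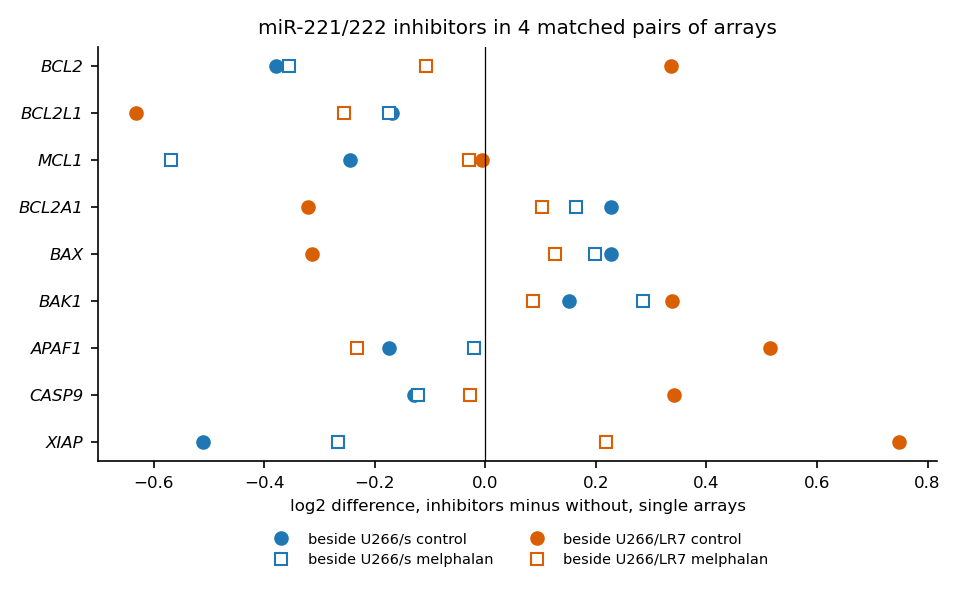
Log2 difference between the array with inhibitors and the matching array without (x axis) for the 9 members (y axis). Blue is U266/s, orange U266/LR7, filled circles are pairs without melphalan and open squares pairs with it. BCL2L1 and MCL1 lie left of 0 and BAK1 right of 0 in all 4 pairs, whereas the U266/LR7 pair without melphalan stands apart at BCL2, BCL2A1, BAX, APAF1 and CASP9. The share of all genes with the same sign in all 4 pairs was not counted.

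The rest of the pathway was read from 6 lists, whose counts stand beside these shares. Between the lines, 16.9% of all genes were called higher and 17.8% lower without melphalan, and 27.7% and 24% with it. With melphalan, 18.4% rose and 24.9% fell in U266/s, and 6.62% were called in either direction in U266/LR7. The interaction was called for 17.9% of all genes as positive and 5.99% as negative. Of the 8 BH3-only genes, whose proteins trigger BAX and BAK1 or occupy the guardians, melphalan in U266/s raised 4 and lowered 1, with a list median of 0.34 beside 0.08 over all genes, of which 18.4% were called higher and 24.9% lower. BBC3, which encodes PUMA, rose by 0.84 ± 0.14 (adjusted p = 0.000672), HRK by 0.49, BAD by 0.48 and BIK by 0.45, and BID fell by 0.57. In U266/LR7, 1 of the 8 rose, BMF by 0.97 ± 0.15 (adjusted p = 0.00383). Without melphalan 1 was higher in U266/LR7, BCL2L11 at 0.65, and 3 were lower, namely PMAIP1 (-4.49), BMF (-0.65) and BID (-0.61). With melphalan BCL2L11 (0.89) was higher, and PMAIP1 (-4.35) and BBC3 (-0.69) were lower. BMF had the only called interaction of the list (0.998).

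Caspases beside CASP9 were represented by 4 measured genes. In U266/s 2 of 4 fell with melphalan, CASP6 by 1.001 and CASP10 by 0.81 (list median -0.62), and 0 rose, beside the 24.9% of all genes that fell. In U266/LR7 1 of 4 rose, CASP2 by 0.57. Without melphalan 0 of 4 differed between the lines. With it 4 of 4 were higher in U266/LR7, CASP10 at 0.81, CASP8 at 0.58, CASP6 at 0.49 and CASP2 at 0.39, on the background of 27.7% given above. The interaction was called for CASP10 (0.86), CASP6 (0.75) and CASP2 (0.62).

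Among the relatives of XIAP and their antagonists, 6 of 7 were measured. In U266/s 3 of 6 fell, BIRC6 by 1.22, NAIP by 1.07 and BIRC2 by 0.56, and 0 rose, on the same background of 24.9%. In U266/LR7 NAIP fell by 1.01. Without melphalan 0 of 6 differed between the lines, and with it BIRC2 was higher (0.74) and BIRC5 lower (-0.53) in U266/LR7. Only BIRC2 had a called interaction in this list (0.70). NAIP has near-identical copies in the genome, so its value is uncertain.

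Genes of the proteins that leave the mitochondrion or form its channels (8 of 8 measured) gave 1 rise and 4 falls in U266/s. Over all genes 18.4% rose and 24.9% fell there. The largest folds were those of AIFM1 (-0.997), HTRA2 (-0.62), ENDOG (0.57) and VDAC3 (-0.56). In U266/LR7 0 of 8 were called by limma, beside 6.62% of all genes. Interactions were called for AIFM1 (0.73), VDAC3 (0.70) and HTRA2 (0.63), beside 17.9% of all genes with a positive call. DIABLO, an antagonist of XIAP, was higher in U266/LR7 without (0.72) and with melphalan (0.68). AIFM1 (-0.88), VDAC1 (-0.50) and VDAC3 (-0.29) were lower in U266/LR7 without it. With it VDAC2 (0.42), HTRA2 (0.42) and VDAC3 (0.41) were higher and VDAC1 (-0.53) lower. The list thus held 1 higher and 3 lower without melphalan, and 4 higher and 1 lower with it. Over all genes, 16.9% were called higher and 17.8% lower without melphalan, and 27.7% and 24% with it. Among 5 genes acting on MCL1 protein turnover, 4 fell in U266/s, BTRC by 1.55, USP9X by 1.29, FBXW7 by 1.12 and CDC20 by 0.99, beside 24.9% of all genes. In U266/LR7 3 fell, BTRC by 1.15, FBXW7 by 0.78 and USP9X by 0.77, beside 6.62% of all genes called in either direction. Between the lines, HUWE1 (-0.62) and CDC20 (-0.61) were lower in U266/LR7 without melphalan. With it BTRC (0.71) and USP9X (0.67) were higher and HUWE1 (-0.42) lower. BTRC and FBXW7 encode ubiquitin ligase subunits, and USP9X a deubiquitinase known to stabilise MCL1 protein. Of 6 other BCL2 relatives, BOK rose by 0.45 in U266/s and BCL2L15 by 0.62 in U266/LR7, and BOK was lower in U266/LR7 with melphalan (-0.46). With inhibitors 0 genes of the 6 lists were called by limma.

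Over the 8 arrays, APAF1 and XIAP were the most alike of the members that varied widely, with a Pearson r of 0.913. BCL2L1 and CASP9 had 0.83, and APAF1 and CASP9 had 0.693. The most negative r between members was that of BAX and CASP9 (-0.869). The genes most like APAF1 over all 18417 were UPRT and HYCC2 (r = 0.994 each). Those most like BCL2 were AGO4 (0.922) and SRSF1 (0.911), and those most like MCL1 were SNORD96B (0.986) and KLF6 (0.955). These correlations describe 8 arrays that share 2 lines and 2 drug states, and they are not tests.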

How the data were processed

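RNA of 8 samples was measured on Affymetrix one-colour arrays. Per the submitters' processing notes, the authors made the deposited log2 values with Affymetrix Expression Console and RMA. The sources used here give no version, setting or build for these steps. Of 33297 clusters, 19460 had 1 symbol, 1754 several and 12083 none, and 19429 were matched to RefSeq by gene ID. The brightest cluster stood for each gene.

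The fit in limma 3.58.1 (R 4.3.3) held line, melphalan, their interaction and inhibitors over all 8 arrays, with an intensity trend, 3 residual degrees of freedom and Benjamini-Hochberg adjustment over 18417 genes. A gene was called at an adjusted p under 0.05. The number of arrays limits precision. The code was tested on simulated data.

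The members and lists were chosen with earlier results of these data known. All members are named, with the 4 largest called folds of each list per comparison, and the 2 genes most alike for BCL2, MCL1 and the member of widest range. Lists with no call are given by count only. Other genes of the lists were named after their values were seen. Alternatives covered normalization, signal filter, clusters per gene, features adjusted over, prior variance, design and each array left out.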

Additional observations from a re-analysis of the deposited data

Results flagged for a closer look

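The melphalan response differed between the lines for 2 members by the interaction term in limma. The difference, U266/LR7 minus U266/s, was 0.79 log2 units for BAK1 and 1.14 for XIAP. BAK1 was higher with melphalan in both U266/LR7 pairs and lower in both U266/s pairs, and its U266/s fall was not called with quantile normalization or cyclic loess. XIAP moved in opposite directions in the U266/LR7 pairs (0.22 without and -0.31 with inhibitors), and it was lower in both U266/s pairs. The narrower signal range of the U266/s melphalan arrays moves with both results, and its part in them was tested only as far as those normalizations go.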

How the results depend on the processing

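Of 14 member calls, 4 were called under every alternative run (BCL2L1 and CASP9 between the lines without melphalan, and CASP9 and APAF1 with it), and 0 called folds turned sign. Of 945 member folds under alternatives, 63 turned sign, none of them called in either setting, and 30 of those moved by less than 1 SE. Of the 9 members, the main counts of called ones were 5 (line difference without melphalan), 4 (with it), 3 (melphalan in U266/s), 0 (in U266/LR7), 2 (interaction) and 0 (inhibitors). With no interaction term they were 3, 3, 0 and 0 for the first 4. That fit averages line differences over drug states and melphalan responses over lines. Its 2 line counts are therefore equal by construction, as are its 2 melphalan counts. With genes above the median signal they were 2 for the line difference with melphalan, 1 in U266/s and 1 for the interaction. APAF1 and XIAP gave no value there. The interaction count was also 1 with cyclic loess, where BCL2L1 was called and neither BAK1 nor XIAP was, and 1 with all clusters (BAK1). Leaving out 1 array at a time gave 3 to 7, 4, 1 to 3, 0 to 1 and 0 to 4 calls in that order, with 0 for inhibitors.

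Only the uncalled folds that turned sign and moved by 1 SE or more are listed here. With quantile normalization and then cyclic loess, line differences with melphalan were -0.026 and -0.12 for MCL1 and -0.13 and -0.17 for BAK1. In the same order, melphalan responses in U266/s were 0.29 and 0.24 for BCL2, 0.082 and 0.16 for MCL1 and 0.12 and 0.16 for BAX. The BAX interaction was -0.046 and -0.11. BCL2A1 in U266/s was -0.10 with cyclic loess. The fit with no interaction term gave values averaged over drug states or over lines. Its BAK1 line difference was -0.18, against 0.21 with melphalan in the main fit. Its BAK1 melphalan response was -0.050, against 0.34 in U266/LR7. Its BCL2L1 melphalan response was -0.027, against 0.23 in U266/s. With 1 array left out, line differences without melphalan ran from -0.15 to 0.47 for BCL2, from -0.018 to 0.47 for BCL2A1 and from -0.31 to 0.63 for XIAP, and MCL1 with melphalan from -0.065 to 0.41. Melphalan responses ran from -0.30 to 0.18 for MCL1 in U266/s, and in U266/LR7 from -0.53 to 0.088 for BCL2, -0.27 to 0.21 for BCL2A1, -0.14 to 0.36 for BAX and -0.52 to 0.42 for XIAP. Interactions ran from -0.50 to 0.12 for BCL2, -0.35 to 0.13 for BCL2A1 and -0.44 to 0.034 for MCL1, and inhibitor values from -0.14 to 0.11 for APAF1 and -0.19 to 0.23 for XIAP. Beyond the averaging in the fit with no interaction term, the cause of these turns was not tested.

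Counts over all genes that moved by over 1.5 times were as follows. For melphalan in U266/LR7, 1220 genes became 422 with all clusters, 679 with transfection as 3 levels, and 306 or 250 without the U266/LR7 melphalan or combination array. For U266/s, 7984 became 838 with no interaction term and 4258 without the U266/s control array. The line difference with melphalan went from 9529 to 6172 with no interaction term, 6207 with genes above the median signal and 6152 without the U266/LR7 melphalan array, and the interaction from 4394 to 2552 without that same array, or to 2443 when the U266/s control was left out. The inhibitor count of 8 ranged from 0 to 20. BCL2A1 throughout and APAF1 in U266/s with melphalan had low signals, under the lower quartile of genes. The part of low signal in their folds was not tested.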
